A study of Mus musculus with 64 samples.

Results

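β-Catenin binding was compared between SOX2-ON cells and caudal epiblast-like cells (CEpiLC) by ChIP-seq, the sequencing of DNA recovered with an antibody against 1 protein. The 6 libraries were all β-catenin libraries that the labels placed in either condition, out of 60 libraries with a peak list and 64 samples in the series. The 3 SOX2-ON libraries (replicates 1 to 3) came from the SOX2-TetON line, labelled Sox2-/-, in which a Sox2 transgene under doxycycline control replaced the endogenous gene, and doxycycline at 1 µg/ml was kept throughout. The 3 CEpiLC libraries, labelled wild type with the strain HM1 (129), came from the male parental line that carries the TetON system without the Sox2 transgene, and got no doxycycline. Both were grown with bFGF and LGK974, a blocker of WNT secretion, with CHIR99021 added from day 2, and were fixed at 72 h. CHIR99021 inhibits GSK3 and so switches on the WNT pathway within the cell. SOX2 level, cell line and doxycycline changed together between the groups and cannot be told apart here. The same SOX2-TetON line differentiated after doxycycline was withdrawn (SOX2-OFF) and wild-type naive embryonic stem cells in 2i medium (naive ESC), which also inhibits GSK3, gave 3 further β-catenin libraries each. Peak lists measure neither SOX2 protein nor RNA, so the labelled cell states could not be checked with marker expression.

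β-Catenin has no DNA-binding domain. When WNT signalling stops its degradation it enters the nucleus and binds TCF/LEF proteins, which recognise a short sequence on DNA. SOX2 is an HMG-box factor of pluripotent and neural cells, and its own recognition sequence resembles that of TCF/LEF factors, which carry the same kind of domain. In the mouse, WNT signalling helps to maintain naive pluripotency and, a little later in the epiblast, induces the primitive streak and the caudal genes of the Cdx and Hox families.

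The strong β-catenin peaks lay only in part at other places in SOX2-ON cells than in CEpiLC. In peak lists of equal length, 1779 sites had a peak in all SOX2-ON libraries, and 812 of them had none in CEpiLC. A peak in all CEpiLC libraries was found at 2170 sites, of which 889 had none in SOX2-ON. All 6 libraries shared 705 sites. Sites found only in SOX2-ON mostly carried a SOX sequence and were mostly bound by SOX2 in SOX2-ON cells. Some lay near Klf2, Klf4, Nanog, Olig3 and Sox3. Of the 40 sites of pluripotency genes, 6 were only in SOX2-ON and 4 only in CEpiLC, these near Dppa3, Prdm14, Sox2 and Tbx3. Neural and primed epiblast genes had 2 of 25 sites only in SOX2-ON, against 8.82% of sites near all protein-coding genes. Sites found only in CEpiLC lay near Fgf8, Hoxb4, Meis3, Msgn1, Mixl1 and Tbx6 and carried a SOX sequence no more often than DNA nearby. In CEpiLC libraries LEF1 had a peak at 68.8% to 75.9% of them and SOX2 at 56.6% to 79.0%. Over all merged sites these shares were 34.0% to 35.8% and 45.0% to 55.0%. In SOX2-ON libraries LEF1 had a peak at 44.7% to 73.4% of the sites found only in SOX2-ON. Over all merged sites that share was 16.5% to 27.3%. Of the 60 sites of WNT feedback and TCF/LEF genes, 20 were found in all 6 libraries, against 527 of 5938 near all protein-coding genes. Sites that differed in opposite directions were found at 3 of these 19 genes and at 3 of the 17 pluripotency genes. Among all 4125 protein-coding genes with a site, 62 had both. The 2 lists also held more sites per gene, with 60 at 19 genes and 40 at 17, against 5938 at 4125.

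The sequences of the strongest sites give examples of the difference in SOX sequence. Windows of 200 bp (GRCm38, the same assembly as mm10, plus strand, from RefSeq) were centred on the strongest summit of the first 3 sites of each kind that also had no peak in any full list of the other condition. Capitals mark matches on either strand to SOX (CATTGT or CTTTGT) and TCF (CTTTGAA or CTTTGAT). Both start alike, so their shared letters can cover part of a site, but no match of one is a match of the other. The 3 sites found in SOX2-ON, named by the nearest protein-coding transcription start site (TSS), were as follows.
Pax9, chr12:56887449-56887648: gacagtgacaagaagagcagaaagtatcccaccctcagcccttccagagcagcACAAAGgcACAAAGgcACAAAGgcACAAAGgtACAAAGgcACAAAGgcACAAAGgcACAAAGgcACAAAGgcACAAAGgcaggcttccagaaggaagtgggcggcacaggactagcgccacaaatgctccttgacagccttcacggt
Cdh8, chr8:100887696-100887895: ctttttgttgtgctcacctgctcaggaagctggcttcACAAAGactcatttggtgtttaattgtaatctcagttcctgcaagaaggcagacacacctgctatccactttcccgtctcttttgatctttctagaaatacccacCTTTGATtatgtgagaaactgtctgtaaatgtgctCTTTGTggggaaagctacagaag
Akap2, chr4:57770239-57770438: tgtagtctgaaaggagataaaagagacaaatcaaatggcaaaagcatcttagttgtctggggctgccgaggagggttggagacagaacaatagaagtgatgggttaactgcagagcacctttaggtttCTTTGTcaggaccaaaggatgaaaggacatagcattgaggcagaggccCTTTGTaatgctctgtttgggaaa
The 3 sites found in CEpiLC were as follows.
Actl6a, chr3:32687034-32687233: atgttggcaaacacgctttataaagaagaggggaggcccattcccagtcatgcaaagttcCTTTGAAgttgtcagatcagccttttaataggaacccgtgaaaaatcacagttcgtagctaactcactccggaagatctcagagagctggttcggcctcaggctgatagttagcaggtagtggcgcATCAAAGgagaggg
Gpr39, chr1:125709749-125709948: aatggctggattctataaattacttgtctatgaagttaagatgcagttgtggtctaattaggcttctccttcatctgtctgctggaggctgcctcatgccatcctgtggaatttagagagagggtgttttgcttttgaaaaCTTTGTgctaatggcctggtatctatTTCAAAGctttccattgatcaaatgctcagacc
Adam6a, chr12:113646170-113646369: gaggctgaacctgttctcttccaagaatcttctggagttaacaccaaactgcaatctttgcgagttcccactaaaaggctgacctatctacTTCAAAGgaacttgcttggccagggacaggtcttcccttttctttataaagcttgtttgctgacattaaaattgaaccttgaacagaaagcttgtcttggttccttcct
The window nearest Pax9 held 10 SOX matches in a row of short repeats. The windows nearest Cdh8 and Akap2 held 2 SOX matches each, and that of Cdh8 also 1 TCF match. In the CEpiLC windows, TCF matches numbered 2 at Actl6a, 1 at Gpr39 and 1 at Adam6a, and only the Gpr39 window held a SOX match. These windows were chosen by rank, and the shares over all sites follow below.

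β-Catenin peak lists differed in length. SOX2-ON replicates 1 to 3 had 359820, 39154 and 461476 peaks, and CEpiLC replicates had 20453, 15201 and 10930. The groups did not overlap, and the mean log10 peak number was 5.27 ± 0.59 (SD, n = 3) in SOX2-ON and 4.18 ± 0.14 (n = 3) in CEpiLC (two-sided exact permutation p = 0.1). A p of 0.1 is the smallest that 3 against 3 libraries allow, so no such test here could pass 0.05. The lists give no reads, so depth is unknown, and its part in the difference was not tested. Positions were therefore compared in equal-length lists, the 3423 peaks of each library with the highest −log10 p-value, 3423 being the shortest of the 12 β-catenin lists. That list, SOX2-OFF replicate 2, stood apart from its group, with 415244 and 32581 peaks in the other SOX2-OFF libraries. SOX2-ON replicate 1 also stood apart at 3 genes. Its peak with the lowest p-value lay over coding exons of Tfap2a (fold of 188), and its exon peaks reached a fold of 70.9 at Tfap2c and 67.0 at Tcf7l1, whereas no other SOX2-ON or CEpiLC library exceeded 13.0 over these exons. Without the sites over these genes, the counts of sites found in 1 condition alone, given below as 812 and 889, were 811 and 889.

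With equal-length lists, libraries of 1 condition resembled each other more than libraries of the other. The Jaccard index, the shared length over the combined length, averaged 0.391 (0.383 to 0.396) within SOX2-ON, 0.465 (0.394 to 0.526) within CEpiLC and 0.187 (0.165 to 0.215) between them. The lowest pair within a condition was above the highest pair between conditions, and the mean difference of 0.241 was the largest of the 10 ways to split the libraries (one-sided exact permutation p = 0.1).

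Peaks of the 6 equal-length lists merged into 8222 sites. Of these, 812 had a peak in all SOX2-ON and no CEpiLC library (9.88%) and 889 in all CEpiLC and no SOX2-ON library (10.8%). A further 705 sites had a peak in all 6 libraries. Absence from an equal-length list did not always mean that no peak was called. Full CEpiLC lists had a peak at 362, 212 and 101 of the 812 SOX2-ON sites, with median folds of 6.00, 5.67 and 4.98, against 22.5, 15.6 and 20.8 in SOX2-ON. Full SOX2-ON lists had a peak at 655, 323 and 660 of the 889 CEpiLC sites, with median folds of 6.84, 5.12 and 7.10, against 15.3, 14.8 and 12.6 in CEpiLC. The fold is the signal at the summit over the local background, as MACS2 gave it. Many sites were weaker, rather than without a peak, in the other condition. When absence was required in the full lists, which are longer in SOX2-ON, 424 SOX2-ON sites (5.16%) and 97 CEpiLC sites (1.18%) were left.

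The 2 kinds of site differed in place. Sites only in SOX2-ON lay a median of 56.0 kb from the nearest TSS and 2.22% of them lay within 1 kb of one, whereas sites only in CEpiLC lay a median of 25.9 kb away and 10.7% were that close. The same held for whole libraries. Of the 3423 peaks, 4.73%, 4.29% and 5.05% were TSS-proximal in SOX2-ON and 9.44%, 10.7% and 11.7% in CEpiLC, with no overlap between groups and a difference of −5.93 percentage points (two-sided exact permutation p = 0.1). With all deposited peaks in place of the equal-length lists the difference was −19.5 percentage points.

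The SOX sequence separated the conditions most widely. Within 100 bp of the summit it was found in 58.9%, 57.4% and 52.5% of SOX2-ON peaks and in 33.9%, 31.7% and 30.3% of CEpiLC peaks. Every SOX2-ON library was above every CEpiLC library, and the difference was 24.3 percentage points (two-sided exact permutation p = 0.1, adjusted p = 0.117 over the 7 sequences searched). In windows of the same length 5000 bp away the share was 25.0% to 27.1% in all 6 libraries. Among sites, 71.8% of those only in SOX2-ON held it (28.3% in windows 5000 bp away), 43.7% of those in all 6 libraries and 25.4% of those only in CEpiLC, where the windows 5000 bp away gave 26.0%.

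The TCF sequence was common in both conditions and somewhat more so in CEpiLC. It was found in 47.9%, 50.3% and 49.2% of SOX2-ON peaks and 53.1%, 57.0% and 54.4% of CEpiLC peaks. The groups did not overlap, but the difference of −5.70 percentage points fell to −2.87 with a window of 250 bp. It was most frequent at the sites in all 6 libraries, at 67.2%, against 44.8% of sites only in SOX2-ON and 52.5% of sites only in CEpiLC, and all 3 shares were well above the 7.65% to 10.3% of windows 5000 bp away. SOX without TCF was the largest class among sites only in SOX2-ON (333 of 812), and TCF without SOX among sites only in CEpiLC (380 of 889) and among sites in all 6 libraries (290 of 705).

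Among the other sequences searched, the T-box letters GGTGTG, part of the sequence bound by T/BRA, were in 21.6% of sites only in CEpiLC (12.7% in windows 5000 bp away) and in 11.6% of sites only in SOX2-ON (11.3%). By library they were found in 11.6%, 12.6% and 13.3% of SOX2-ON peaks and 15.4%, 16.9% and 17.6% of CEpiLC peaks, without overlap (difference −4.13 percentage points, exact permutation p = 0.1). CDX sequences (TTTATGG or TTTATTG) were in 6.37%, 5.90% and 5.35% of SOX2-ON peaks and 10.2%, 6.84% and 5.29% of CEpiLC peaks. Here the groups overlapped, and the difference of −1.56 percentage points (exact permutation p = 0.5) was −0.19 without CEpiLC replicate 1 and −2.63 without CEpiLC replicate 3. KLF sequences (GGGCGTGG or GGGTGTGG) were in 1.99% to 2.04% of SOX2-ON peaks and 2.83% to 3.33% of CEpiLC peaks. The ESRRB sequence TCAAGGTCA and the long composite OCT-SOX sequence were in 0.117% to 0.526% and 0.0876% to 0.175% of the peaks of a library, too few to describe further.

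**Figure D1:**
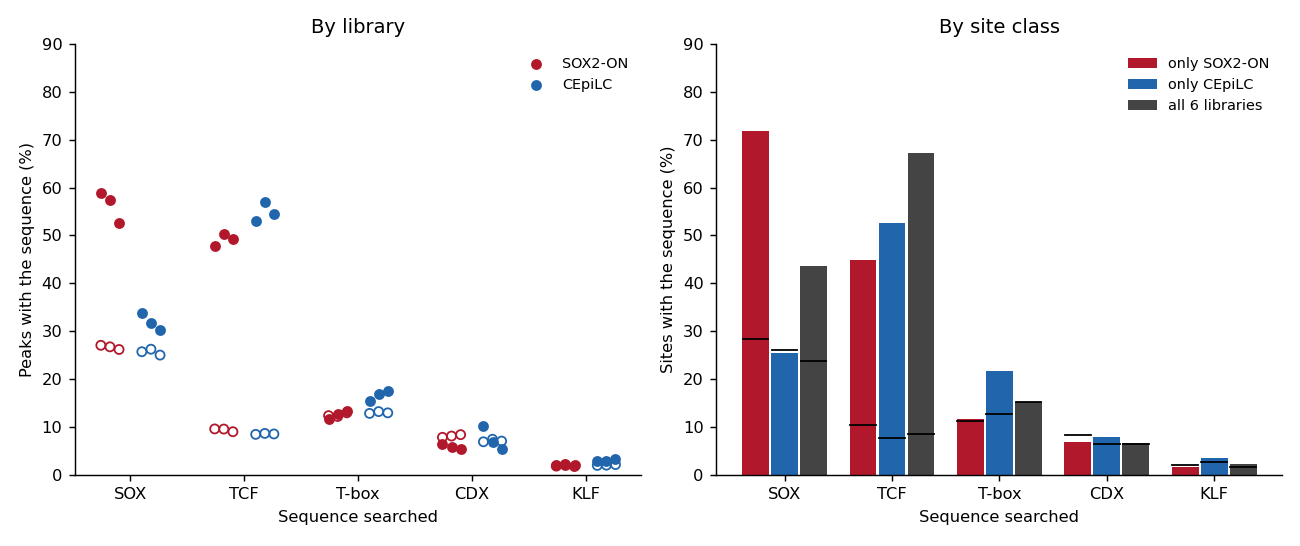
Left, share of the 3423 strongest peaks per library with each sequence within 100 bp of the summit (filled points, 1 per library) and in windows 5000 bp away (open points). Right, the same share for sites only in SOX2-ON, only in CEpiLC and in all 6 libraries (bars), with windows 5000 bp away as black lines. SOX reaches 71.8% at sites only in SOX2-ON and stays at its nearby level at sites only in CEpiLC.

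The partners of β-catenin had been mapped in separate libraries that played no part in choosing the sites. SOX2 itself occupied 94.3%, 91.4% and 92.6% of the 812 SOX2-ON sites in the SOX2 libraries of SOX2-ON cells, and 52.5%, 37.7% and 36.0% in those of CEpiLC. At the 889 CEpiLC sites the order turned, with 14.8%, 10.0% and 16.3% in SOX2-ON and 63.8%, 56.6% and 79.0% in CEpiLC. The groups were separate at both kinds of site, with differences of 50.7 and −52.7 percentage points (two-sided exact permutation p = 0.1 each). SOX2 peaks were found at most β-catenin sites in the cells in which β-catenin had its peaks, and at fewer of them in the other cells. With 2000 peaks per library, the second difference was −19.9 percentage points. SOX2 was present in all 3 SOX2-ON libraries at 90.7% of the 583 SOX2-ON sites with a SOX sequence and at 77.7% of the 229 without one. At the CEpiLC sites, SOX2 was present in all 3 CEpiLC libraries at 62.8% of the 226 with a SOX sequence and at 40.0% of the 663 without one.

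LEF1, a TCF/LEF factor that rises in many tissues when WNT signalling is active, was compared next. In LEF1 libraries of CEpiLC, 68.8%, 75.9% and 75.5% of the CEpiLC sites had a peak, against 2.92%, 1.80% and 2.47% in SOX2-ON. At the SOX2-ON sites the shares were 44.7%, 73.4% and 45.8% in SOX2-ON and 6.16%, 4.93% and 2.83% in CEpiLC. All CEpiLC libraries were apart from all SOX2-ON libraries in both sets, with differences of −71.0 and 50 percentage points (exact permutation p = 0.1 each). Over all merged sites LEF1 had 16.5%, 27.3% and 17.8% in SOX2-ON and 34.4%, 35.8% and 34.0% in CEpiLC. LEF1 was present in all 3 CEpiLC libraries at 67.7% of CEpiLC sites with a TCF sequence and 39.1% of those without. At the SOX2-ON sites there was no such gap. There LEF1 was present in all 3 SOX2-ON libraries at 26.4% of sites with a TCF sequence and 25.9% of those without.

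TCF7L1, mainly a repressor in stem cells, occupied 18.8%, 62.8% and 59.5% of the SOX2-ON sites in SOX2-ON and no more than 1.48% in any CEpiLC library. At CEpiLC sites it occupied 15.7%, 38.4% and 38.6% in CEpiLC and no more than 0.787% in SOX2-ON. Replicate 1 was the lowest in each case. TCF7L2 occupied 16.4%, 24.9% and 24.0% of SOX2-ON sites in SOX2-ON and no more than 0.985% in CEpiLC, and 33.4%, 28.3% and 35.3% of CEpiLC sites in CEpiLC against 3.71%, 4.50% and 5.17% in SOX2-ON. The groups did not overlap for either factor (exact permutation p = 0.1 each). In full lists they overlapped at the CEpiLC sites, with an exact permutation p of 0.4 for TCF7L1 and 0.2 for TCF7L2. Over all merged sites, equal-length lists gave TCF7L1 shares of 6.77%, 19.4% and 19.6% in SOX2-ON and 10.1%, 18.1% and 17.2% in CEpiLC. For TCF7L2 they gave 8.37%, 10.9% and 12.4% in SOX2-ON and 19.0%, 14.1% and 15.9% in CEpiLC. Equal-length lists held 20000 peaks for SOX2, 4443 for LEF1, 1626 for TCF7L1 and 4131 for TCF7L2, so shares of different factors are not comparable with one another.

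Held to the same rule of 3 libraries against 0, SOX2 was itself found only in SOX2-ON at 257 of the 812 SOX2-ON sites (31.7%). LEF1 was at 185 (22.8%), TCF7L1 at 114 (14.0%) and TCF7L2 at 47 (5.79%). At the 889 CEpiLC sites SOX2 was found only in CEpiLC at 243 (27.3%) and LEF1 at 439 (49.4%). TCF7L1 was at 70 (7.87%) and TCF7L2 at 87 (9.79%). None of the 4 factors showed the opposite pattern at any of these sites (0 in each case). The same count over all merged sites is not given here. A peak in all 3 SOX2-ON libraries, whatever CEpiLC had, was at 37.8% of all merged sites for SOX2 and 7.48% for LEF1. It was at 4.93% for TCF7L1 and 3.99% for TCF7L2. In all 3 CEpiLC libraries, whatever SOX2-ON had, these shares were 34.8%, 22.7%, 6.62% and 8.17%.

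The other β-catenin libraries divided the same sites. SOX2-ON sites had a peak in 44.5%, 41.4% and 41.6% of cases in the equal-length lists of naive ESC and in 12.9%, 19.2% and 13.2% in SOX2-OFF. CEpiLC sites had one in 10.5%, 7.65% and 8.21% in naive ESC and in 60.5%, 31.9% and 62.0% in SOX2-OFF. Over all merged sites, the shares were 25.3%, 22.2% and 23.3% in naive ESC and 33.6%, 27.8% and 34.8% in SOX2-OFF. At CEpiLC sites, SOX2-OFF replicate 2 was thus close to its own level over all merged sites. Naive ESC and SOX2-OFF did not overlap at either kind of site, with differences of 27.4 and −42.7 percentage points (exact permutation p = 0.1 each). SOX2-OFF cells share the cell line of SOX2-ON and the absence of doxycycline with CEpiLC. In full lists, the difference at CEpiLC sites was −21.2 percentage points (exact permutation p = 0.4), with SOX2-OFF replicate 2, whose full list was the equal-length list, at 31.9% and the other SOX2-OFF libraries at 96.6% and 95.4%.

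**Figure D2:**
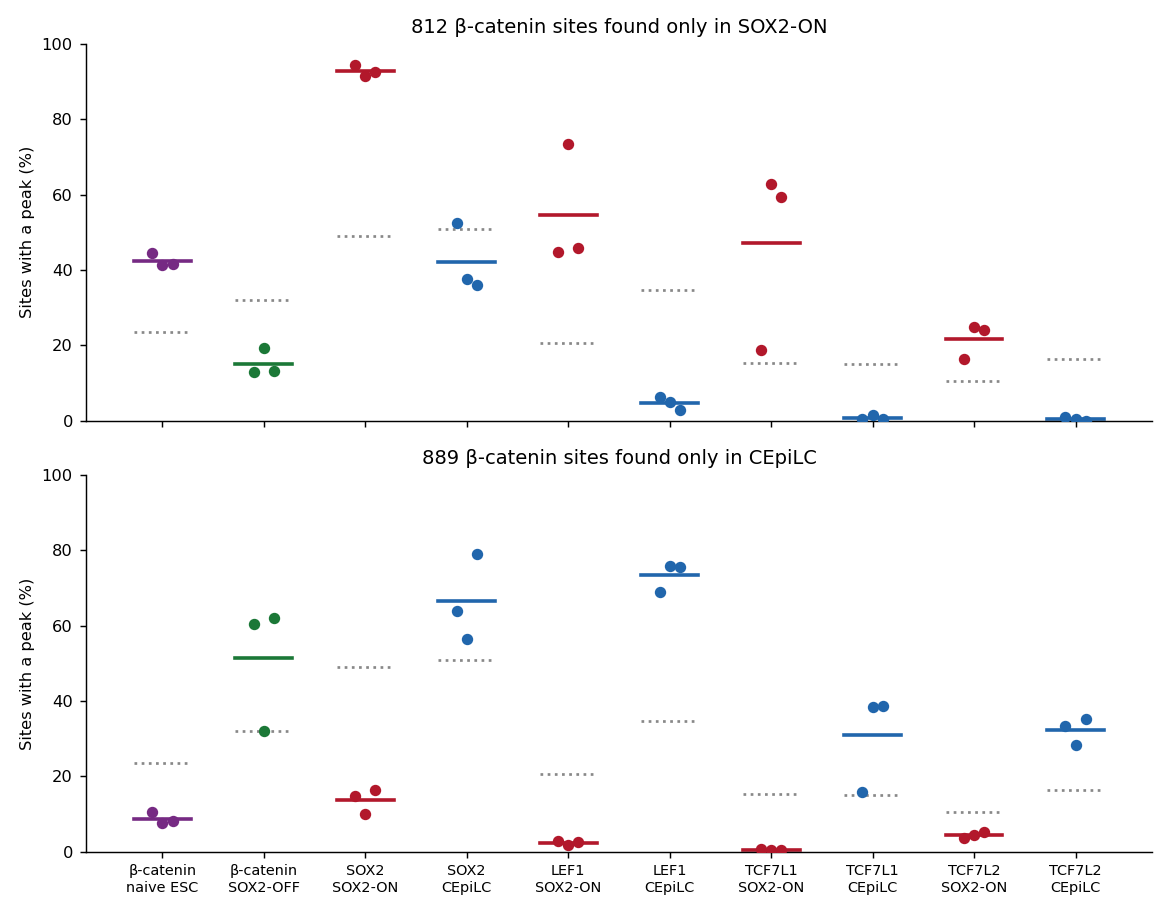
Share of the 812 sites only in SOX2-ON (top) and the 889 sites only in CEpiLC (bottom) with a peak in equal-length lists of other libraries. Each point is 1 library, the solid line is the mean of 3, and the dotted line is the mean share over all 8222 merged sites. SOX2 and LEF1 change order between the panels.

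Fold was compared at the 2497 sites with a peak in all 6 full lists, with limma on median-centred log2 fold. It was higher in SOX2-ON at 404 sites (16.2%) and higher in CEpiLC at 509 (20.4%) at a Benjamini-Hochberg adjusted p below 0.05. Under quantile normalization the counts were 477 and 468, so which condition had more such sites depends on the scaling. Requiring a peak everywhere leaves out the sites without a peak in some library, so these counts describe sites bound in both conditions. They overlap with the sites found in 1 condition alone by the equal-length lists. Of the 404, 77 were among the sites only in SOX2-ON, and of the 509, 178 among those only in CEpiLC. Sites higher in SOX2-ON had median folds of 26.9, 19.9 and 28.6 in SOX2-ON and 10.2, 8.60 and 7.01 in CEpiLC. Sites higher in CEpiLC had 10.6, 6.97 and 11.3 in SOX2-ON and 26.0, 28.1 and 24.1 in CEpiLC. The SOX sequence was in 55.0% of sites higher in SOX2-ON, 24.0% of sites higher in CEpiLC and 40.3% of sites past neither threshold. SOX2 was present in all 3 SOX2-ON libraries at 75.5%, 15.5% and 36.7% of these, and LEF1 in all 3 CEpiLC libraries at 28.2%, 80.4% and 47.7%.

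The largest differences lay far from promoters. A site in an intron of Clstn2, 107228 bp from the TSS of Trim42 (chr9:97476650-97477832), had folds of 122, 150.5 and 120.5 in SOX2-ON and 9.01, 5.86 and 4.21 in CEpiLC, a log2 difference of 4.36 ± 0.35 (SE, limma adjusted p = 8.5e-18). The other 4 of the 5 largest in that direction, nearest the TSS of Plcb4, Nuak1, Smgc and Zdhhc21, differed by 3.16 to 3.26. In CEpiLC the widest was a site in an intron of Tbc1d4 (chr14:101445137-101445837), with folds of 34.9, 63.8 and 85.3 in CEpiLC and 10.4, 3.87 and 2.72 in SOX2-ON (log2 difference −3.65 ± 0.38, limma adjusted p = 2.8e-12). A site within Fgfr2 (chr7:132198335-132199373), a receptor for FGF, followed the same order with 42.6, 69.6 and 53.6 in CEpiLC and 5.54, 5.10 and 7.70 in SOX2-ON. At all 10 of these sites the lowest library of the higher group was above the highest library of the other. The sites were picked for the largest differences, so this separation is no separate evidence.

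**Figure D3:**
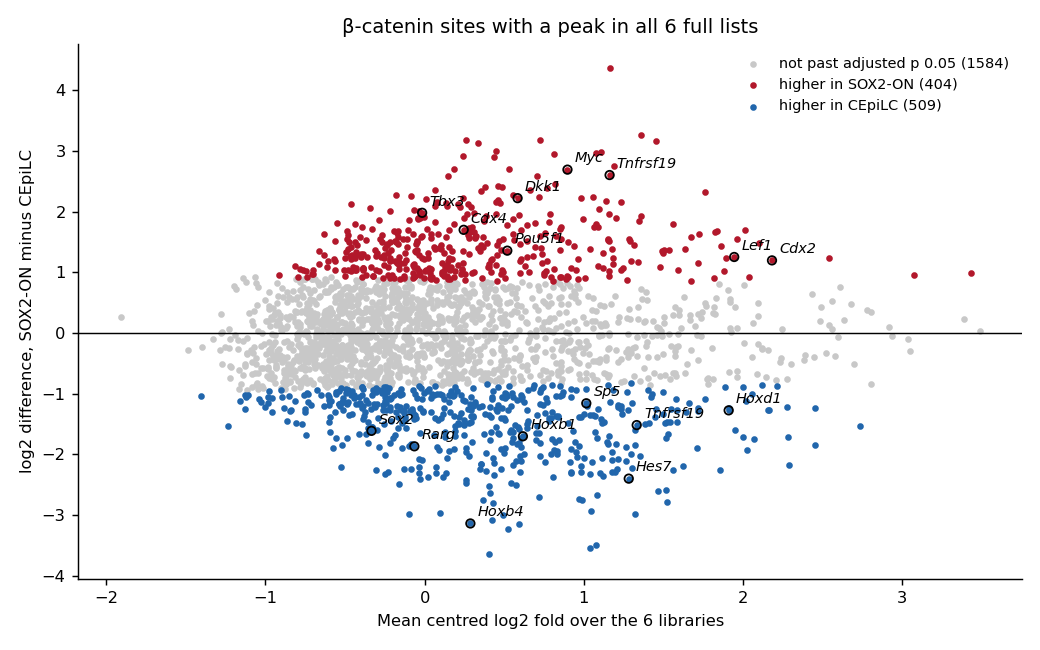
Log2 difference in fold (SOX2-ON minus CEpiLC) against the mean centred log2 fold for 2497 sites with a peak in all 6 full lists. Red and blue mark the 404 and 509 sites past an adjusted p of 0.05 by limma, and circles mark sites of genes named in the text, such as Myc at 2.69 and Hoxb4 at −3.14.

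Sites within 100 kb of a protein-coding TSS were given to the nearest such gene, which names a neighbour and not a target. Of 5938 such sites, 8.82% were only in SOX2-ON and 11.5% only in CEpiLC, and against these shares 5 lists of genes are described by their counts. For the naive and general pluripotency genes the shares were 15.0% (6 of 40 sites) and 10.0% (4 of 40). Caudal epiblast, Cdx and Hox genes had 1 of 58 only in SOX2-ON and 20 of 58 (34.5%) only in CEpiLC. Primitive streak and mesoderm genes had 0 of 38 and 11 of 38 (28.9%). WNT feedback and TCF/LEF genes had 7 of 60 (11.7%) and 3 of 60 (5.00%), and 20 of their 60 sites were in all 6 libraries, against 527 of 5938 overall. Neural and primed epiblast genes had 2 of 25 and 0 of 25. The caudal and the streak lists were thus the lists with shares only in CEpiLC above that of all sites.

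**Figure D4:**
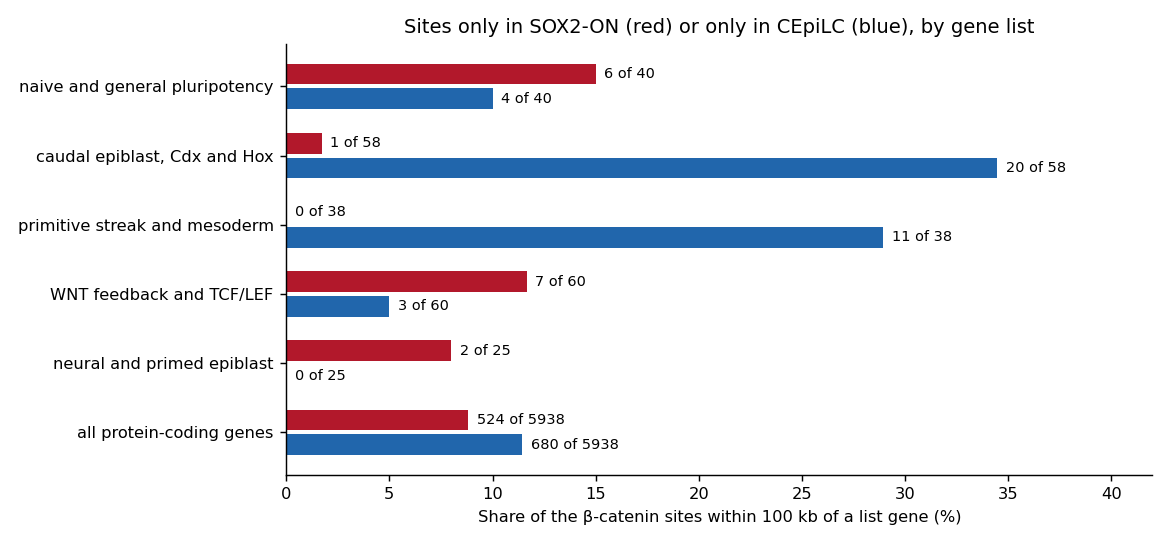
Share of the sites within 100 kb of the genes of each list that were found only in SOX2-ON (red) or only in CEpiLC (blue), with counts beside the bars. The caudal and the streak lists reach 34.5% and 28.9% only in CEpiLC, and all protein-coding genes together 11.5%.

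Among pluripotency genes, 15 of 17 had a site. Klf2, Klf4 and Klf5 encode related zinc-finger factors of the naive state. The site 2773 bp upstream of Klf2 (chr8:72315838-72316621) had folds of 27.7, 24.8 and 26.4 in SOX2-ON and no peak in any full CEpiLC list. In naive ESC it reached 42.2, 31.2 and 63.7, and in SOX2-OFF 11.0, 6.54 and 5.06. Its window held 2 SOX matches and no TCF match.
Klf2, chr8:72316161-72316360: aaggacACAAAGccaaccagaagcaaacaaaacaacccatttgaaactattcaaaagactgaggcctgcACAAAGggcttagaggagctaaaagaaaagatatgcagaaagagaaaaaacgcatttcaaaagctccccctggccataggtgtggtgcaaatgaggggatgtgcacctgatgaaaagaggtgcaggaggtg
A site 68029 bp downstream of the Klf4 TSS (chr4:55463981-55464736) had folds of 23.1, 20.8 and 28.4 in SOX2-ON and likewise no CEpiLC peak, with 49.5, 21.7 and 50.7 in naive ESC. The promoter of Nanog, a homeobox factor of pluripotent cells (chr6:122706973-122707747), had 13.5, 6.92 and 13.6 in SOX2-ON, weak peaks of 5.34 and 5.45 in 2 CEpiLC libraries and none in the third. All SOX2-ON values at these sites were above all CEpiLC values. The sites were named because they were found only in SOX2-ON, so this separation is no separate evidence.

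Other genes of the list had sites in each direction. At Sall4, a zinc-finger factor of pluripotent cells, a site 71744 bp upstream had folds of 48.4, 32.1 and 53.9 in SOX2-ON and 11.7, 12.3 and 8.42 in CEpiLC (log2 difference 1.97 ± 0.34, limma adjusted p = 2.2e-06). A nearer site, 13034 bp upstream, had 5.43, 6.16 and 14.5 in SOX2-ON and 18.1, 14.7 and 13.5 in CEpiLC (−1.03 ± 0.37, limma adjusted p = 0.021), where the groups overlapped before centring and the call was lost without scaling (adjusted p = 0.090). Dppa3, a germ cell and naive state gene, had a site only in SOX2-ON 1729 bp upstream (26.1, 19.2 and 22.2) and a site only in CEpiLC 28920 bp downstream (37.3, 27.2 and 22.6). A single gene could therefore hold both kinds of site. At Tbx3, a T-box factor, a site 35802 bp downstream was higher in SOX2-ON (log2 difference 1.98 ± 0.36, limma adjusted p = 7.5e-06), and another 57030 bp upstream was only in CEpiLC by the equal-length lists but did not pass the fold test (−0.86 ± 0.36, adjusted p = 0.054). The promoter of Pou5f1, which encodes OCT4, had folds of 34.8, 17.0 and 43.0 in SOX2-ON and 11.9, 15.6 and 7.14 in CEpiLC (1.36 ± 0.35, limma adjusted p = 0.0011).

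Other sites of this list were stronger in CEpiLC. A site 14992 bp downstream of the Sox2 TSS, in an exon of a gene model that does not code for protein (chr3:34664916-34665726), had 18.4, 17.9 and 15.0 in CEpiLC and 6.82, 5.13 and 5.62 in SOX2-ON (−1.61 ± 0.37, limma adjusted p = 0.00023). In SOX2-OFF, from the same line without a working endogenous Sox2, this site had 11.0, 5.40 and 15.7. Any part of the edited locus in these values was not tested. Another site, 53659 bp from Prdm14, had 13.4, 16.8 and 24.5 in CEpiLC and 1 peak of 4.18 in SOX2-ON replicate 3. A site 41023 bp downstream of Klf5 was at the threshold (−0.86 ± 0.36, limma adjusted p = 0.049) and lost the call under quantile normalization (0.058) and without scaling (0.17). A more distant site, 78620 bp upstream of Klf5 and named after its values were seen, had 11.8, 7.81 and 5.52 in CEpiLC and 3.71, 3.69 and 5.14 in SOX2-ON (−1.02 ± 0.39, limma adjusted p = 0.032). No site near Esrrb, a nuclear receptor of the naive state, met the 3-against-0 rule or was tested for fold.

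Among caudal genes, 25 of 35 had a site and 15 had one only in CEpiLC, against 631 of the 4125 protein-coding genes with a site. FGF8, a growth factor of the caudal epiblast, had 3 such sites near its gene, the strongest 19647 bp downstream (chr19:45722825-45723211) with folds of 29.6, 35.2 and 33.6 in CEpiLC and 1 peak of 5.12 in SOX2-ON. The site 1062 bp upstream of Meis3, a Hox cofactor (chr7:16173928-16174814), had 38.4, 31.0 and 23.2 in CEpiLC, 2.60 and 4.73 in 2 SOX2-ON libraries, and no peak in any naive ESC or SOX2-OFF library. Its window held neither a SOX nor a TCF match.
Meis3, chr7:16174114-16174313: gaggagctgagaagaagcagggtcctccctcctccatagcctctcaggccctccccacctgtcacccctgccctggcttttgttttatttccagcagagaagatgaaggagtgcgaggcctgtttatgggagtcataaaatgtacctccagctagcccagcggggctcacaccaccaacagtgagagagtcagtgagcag
The site 1765 bp upstream of Hoxb4 (chr11:96315808-96317055) had 55.2, 52.8 and 30.1 in CEpiLC and 11.4, 4.44 and 2.89 in SOX2-ON, a log2 difference of −3.14 ± 0.37 (limma adjusted p = 8.6e-11). It too was weak or without a peak in SOX2-OFF (4.30 in 1 library). The Meis3 and Hoxb4 sites had folds in CEpiLC above those in every SOX2-OFF library.

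The promoter site of Hoxb1 had 29.6, 44.3 and 29.9 in CEpiLC and 10.6, 11.2 and 10.9 in SOX2-ON (−1.70 ± 0.35, limma adjusted p = 5.0e-05). Near the same gene, a site 9284 bp downstream was only in SOX2-ON, at 12.6, 12.2 and 33.4. Sites at Hoxd1 and Meis2 were higher in CEpiLC by log2 differences of −1.28 and −1.36 (limma adjusted p of 0.0018 to 0.0026), and a site in an intron of Rarg, a retinoic acid receptor, by −1.87 ± 0.36 (adjusted p = 1.6e-05).

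Intronic sites of Cdx2 and Cdx4 were higher in SOX2-ON. The intronic site of Cdx2, the caudal homeobox gene (chr5:147303708-147305639), had the highest folds of the list, 91.2, 70.2 and 106.9 in SOX2-ON against 32.7, 38.6 and 39.3 in CEpiLC (log2 difference 1.20 ± 0.36, limma adjusted p = 0.0051), and 104.0, 70.8 and 109.2 in naive ESC. Cdx4 had an intronic site with 33.4, 25.6 and 24.1 in SOX2-ON and 11.8, 7.03 and 6.31 in CEpiLC (1.70 ± 0.35, limma adjusted p = 6.6e-05). At both sites, named as higher in SOX2-ON, the groups did not overlap. The promoter site of Cdx1, with 56.1, 39.6 and 63.0 in SOX2-ON and 51.1, 69.5 and 61.5 in CEpiLC, did not pass the test (−0.28 ± 0.36, limma adjusted p = 0.57). At Sp8 a site in an intron of Abcb5 was higher in SOX2-ON (0.97 ± 0.35, limma adjusted p = 0.022) and lost the call without scaling (0.062) and with all merged sites tested, a missing peak set low (0.15).

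All 20 primitive streak and mesoderm genes had a site, and 10 had one only in CEpiLC, where 631 of 4125 genes overall did. Msgn1 and Tbx6 encode factors of presomitic mesoderm. The Msgn1 promoter (chr12:11208821-11209535) had 29.5, 30.9 and 45.9 in CEpiLC and 2.79 and 3.54 in 2 SOX2-ON libraries, and a site in Tbx6 had 20.6, 33.0 and 31.5 in CEpiLC and 1 peak of 5.20 in SOX2-ON. Sites near Mixl1, a streak homeobox gene (20.7, 21.9 and 29.1), and Mesp1, a gene of early mesoderm (16.5, 14.3 and 14.0), had no peak in any full SOX2-ON list. None of these 4 sites had a peak in SOX2-OFF replicate 2, while SOX2-OFF replicates 1 and 3 had folds of 8.51 to 33.1 at all of them.

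Signalling genes of the list followed. Rspo3, which strengthens WNT signals, had 18.2, 16.7 and 27.4 in CEpiLC and 1 SOX2-ON peak of 2.81, and Wnt3, a WNT ligand, had 19.0, 16.3 and 8.42 against 4.50 and 6.05 in 2 SOX2-ON libraries. The site 2316 bp upstream of Hes7, a Notch target of the segmentation clock, had 46.8, 76.7 and 89.8 in CEpiLC and 19.8, 7.67 and 16.4 in SOX2-ON (−2.40 ± 0.36, limma adjusted p = 7.0e-08). T, which encodes BRA, had a site 25344 bp upstream that was higher in CEpiLC (−0.95 ± 0.35, limma adjusted p = 0.025), a call lost without scaling (0.11). Its promoter and 1 more site did not pass the test. The exception in direction was Dll1, a Notch ligand, with 23.7, 14.3 and 26.8 in SOX2-ON and 9.05, 7.94 and 10.8 in CEpiLC (1.12 ± 0.35, limma adjusted p = 0.0086), a call lost with all merged sites tested (0.096).

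WNT feedback genes held strong sites in both conditions. Of 36 sites tested, 6 were higher in SOX2-ON (16.7%) and 5 in CEpiLC (13.9%), against 15.8% and 19.8% of the 1890 tested sites near protein-coding genes. The median log2 difference was −0.05, against −0.13 over those sites. The site 6308 bp upstream of Myc, a growth regulator (chr15:61978640-61979546), had 53.1, 52.8 and 80.0 in SOX2-ON and 9.94, 7.81 and 9.32 in CEpiLC (2.69 ± 0.34, limma adjusted p = 9.9e-10). Dkk1, a secreted WNT inhibitor, had a site 44004 bp downstream with 39.7, 33.0 and 54.7 against 14.9, 7.03 and 5.87 (2.22 ± 0.35, limma adjusted p = 2.7e-07). The site 4344 bp upstream of Lef1 had 100.0, 54.5 and 81.3 against 29.6, 28.1 and 34.4 (1.25 ± 0.35, limma adjusted p = 0.0031). At each of these sites, named as higher in SOX2-ON, every SOX2-ON library was above every CEpiLC library.

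Tnfrsf19, a WNT-responsive receptor gene, had 9 sites, the most of the list. An intronic site 14494 bp downstream of its TSS had 72.6, 58.5 and 83.4 in SOX2-ON and 17.6, 9.95 and 7.87 in CEpiLC (2.60 ± 0.34, limma adjusted p = 2.5e-09). A site 10874 bp upstream had 19.8, 9.97 and 35.1 in SOX2-ON and 40.9, 70.3 and 49.7 in CEpiLC (−1.52 ± 0.35, limma adjusted p = 0.00033). In naive ESC the first had 60.6, 23.1 and 34.9 and the second 5.82, 7.34 and 6.24, whereas in SOX2-OFF the second had 94.1, 15.3 and 93.4. Axin2, a part of the β-catenin destruction complex, showed the same split over a shorter distance, with a site only in SOX2-ON 27224 bp upstream (19.5, 9.18 and 21.7) and a site only in CEpiLC 22515 bp upstream (15.1, 15.8 and 17.8). None of the 4 Axin2 sites with a peak in all libraries passed the fold test.

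Nkd1 and Dkk4, which encode WNT antagonists, and Rnf43, a ligase that removes WNT receptors, had sites only in SOX2-ON, with folds of 13.4 to 35.8, 19.9 to 34.0 and 15.4 to 23.1. Promoter sites of Lef1 and Notum, an enzyme that inactivates WNT proteins, were only in CEpiLC by the equal-length lists, but their folds of 6.13 to 12.7 in CEpiLC overlapped the 4.35 to 10.8 of the SOX2-ON peaks. Sites at Sp5, Znrf3, Tcf7l2 and Ccnd1 were higher in CEpiLC by log2 differences of −0.92 to −1.16 (limma adjusted p of 0.0067 to 0.026), and the calls at Znrf3, Tcf7l2 and Ccnd1 were lost without scaling. Of the 7 sites only in SOX2-ON, 1 lay near Tcf7l1, a gene with the exon peaks of SOX2-ON replicate 1 given above.

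The neural and primed epiblast genes had few sites. Olig3, a bHLH factor of the nervous system, had a site 15832 bp downstream (chr10:19372083-19372709) with 24.2, 22.1 and 22.8 in SOX2-ON, no peak in CEpiLC or SOX2-OFF, and 75.8, 36.2 and 80.0 in naive ESC. Sox3, the close relative of Sox2, had a site 72357 bp downstream with 28.9, 16.9 and 22.3 in SOX2-ON, no peak in CEpiLC or SOX2-OFF, and 14.7, 6.48 and 15.0 in naive ESC. None of the 6 tested sites of this list passed the limma threshold in either direction.

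**Figure D5:**
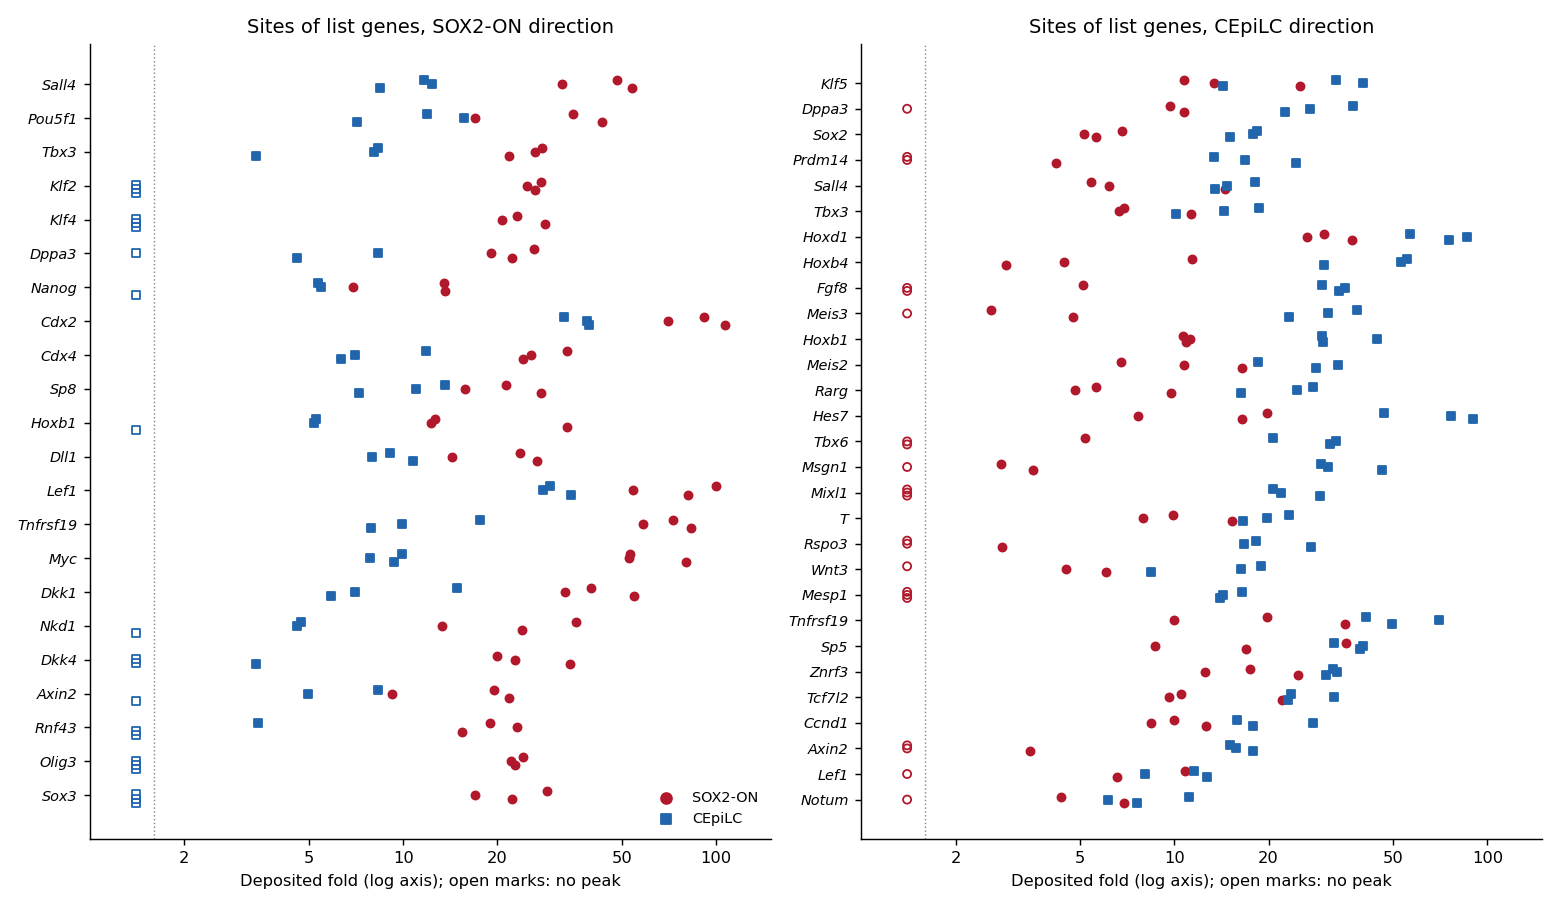
Deposited fold on a log axis in 3 SOX2-ON (red circles) and 3 CEpiLC (blue squares) libraries at the strongest differing sites of list genes, for sites only or higher in SOX2-ON (left) and only or higher in CEpiLC (right). Open marks left of the dotted line are libraries with no peak. Klf2, Klf4, Olig3 and Sox3 have no CEpiLC peak, and Mixl1 and Mesp1 no SOX2-ON peak.

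The strongest sites without any peak in the other condition were away from these lists. The site nearest Pax9 was 191909 bp from its TSS, in an intron of Slc25a21, and had 103.8, 57.9 and 87.6 in SOX2-ON and no peak in CEpiLC or SOX2-OFF. The site nearest Cdh8 lay 1471324 bp from its TSS and had 87.3, 53.1 and 71.5. The intronic Akap2 site had 64.1, 67.7 and 77.0, and 2 further sites, nearest Cbln4 and Rcn1, had 40.6 to 70.8. Of these 5, Cbln4 and Akap2 had the highest naive ESC folds, with 81.5, 48.7 and 94.7 at Cbln4. Both were at or below 6.92 in SOX2-OFF.

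In CEpiLC the strongest such site lay 21374 bp upstream of Actl6a, a subunit of chromatin remodelling complexes, with 39.1, 63.7 and 71.5. The intronic Gpr39 site had 29.2, 66.0 and 61.0, the site nearest Adam6a 19.9, 48.5 and 62.8, and those nearest Rab8b and Slco5a1 31.4 to 53.5. At all 5, SOX2-OFF replicates 1 and 3 had a peak, with folds of 11.2 to 60.4, and replicate 2 had one at the Adam6a site alone. In naive ESC the highest fold at any of the 5 was 13.2, in replicate 1 at Rab8b.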

How the data were processed

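The 6 β-catenin libraries and the 30 libraries set beside them were read from the deposited peak lists. The authors, by the study's methods, trimmed and aligned single-end reads of 76 bp to mm10 with the nf-core ChIP-seq pipeline and BWA and called narrow peaks per library with MACS2 at a q-value below 0.05, without pooling. How inputs were paired with them is not given in the sources used here. The deposited fold (ratio over local background) was used as the measure of binding, the deposited −log10 p-value ranked the peaks, and the deposited −log10 q-value and score served only as filters or checks. No read counts were used here, so no counting interval is given. By the study's methods, the 3 replicates of a condition came from different experiments.

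Peaks on chromosomes 1 to 19, X and Y were shortened to equal-length lists and merged into sites at 1 bp of overlap. Differences between libraries were tested with 2-sided exact permutation tests unless stated otherwise. Folds at common sites were log2 transformed, without a pseudocount, centred on each library's median and compared with limma (version 3.58.1, R 4.3.3, moderated with a trend, Benjamini-Hochberg adjustment). On simulated folds for these 2497 sites, 26% of changes of 1 and 92% of changes of 2 on the log2 scale were recovered, and 7.09% of calls were false. Genes came from GENCODE vM21 and sequences from RefSeq GRCm38.p6, read with pysam 0.24.0. In each of the 5 gene lists (111 genes), up to 8 genes per direction were named by the highest median fold among their sites found only in, or higher in, 1 condition, with the 5 strongest sites absent from the other condition's full lists and the 5 largest fold differences per direction. Values of 1 gene that the rule names are not reported here. Members, lists and tests were chosen with earlier results of these data known. Alternatives covered list length, ranking, overlap, scaling, windows, missing peaks and each library left out.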

Additional observations from a re-analysis of the deposited data

How the results depend on the processing

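The counts of sites found only in SOX2-ON (812) or only in CEpiLC (889) followed the length of the lists. They were 502 and 576 with 2000 peaks per library and 1486 and 2088 with 10930. With all deposited peaks 4546 sites were only in SOX2-ON and 801 only in CEpiLC, and with absence required in the full lists the counts were 424 and 97. Leaving out 1 library, which leaves fewer lists to agree, gave 839 to 1164 and 954 to 1215. Testing all 8222 merged sites with a missing peak set to the lowest fold of its library gave 2661 sites higher in SOX2-ON and 2551 in CEpiLC, since absent peaks then count as low folds. Of the 913 calls at common sites, 867 kept their direction and threshold under quantile normalization and 707 without scaling, and none changed sign, although the quantile counts were 477 higher in SOX2-ON and 468 in CEpiLC. List genes with a site only in SOX2-ON numbered 14 by nearest TSS and 9 by gene body with 10 kb upstream. No difference between groups and no log2 difference at a named site changed sign under the alternatives run. Which condition had more sites did change with all deposited peaks, with absence required in the full lists, with quantile normalization and with missing peaks set low. It also changed with any 1 SOX2-ON library left out. Without SOX2-ON replicates 1, 2 and 3 in turn, 1074, 1024 and 1164 sites were only in SOX2-ON and 983, 954 and 1029 only in CEpiLC. Whether the replicate numbers pair libraries of the 2 conditions is given neither by the labels nor by the study's methods. The deviations of same-numbered libraries correlated at 0.15, 0.05 and 0.09. With the replicate number as a block, 449 common sites were higher in SOX2-ON and 560 in CEpiLC, and all 913 calls were kept. For single differences the block test cannot go below p = 0.25, and 5 of the 6 libraries correlated best with their own number. Depth, which the lists do not hold, limits every statement of absence.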
